A study of Mus musculus with 8 samples.

Results

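Annexins are proteins that bind acidic membrane phospholipids when calcium rises. The family was examined in mouse livers of the METTL3-HKD and METTL3-Flox genotypes, whose blood supply was stopped for 1 h and restored for 6 h. The 8 genes described here, Anxa1, Anxa2, Anxa3, Anxa4, Anxa5, Anxa6, Anxa7 and Anxa11, were selected by gene symbol from the 54532 genes of the deposited table, and all 8 passed the filter for testing. METTL3 is the enzyme that writes N6-methyladenosine (m6A) on mRNA. The METTL3-HKD group (n = 4) carried METTL3 flox/- with Alb-iCre, a recombinase driven by the albumin promoter and so directed at hepatocytes, and was used in place of the full hepatocyte knockout, whose mice died early. The METTL3-Flox group (n = 4) were METTL3 flox/flox littermates. Every animal therefore carried a METTL3 allele with loxP sites around exon 4, and every liver had been through ischemia and reperfusion. Neither a sham-operated liver nor a Cre-only liver was analysed here, so each difference is between genotypes after injury. The strain background was C57BL/6, and the age and sex of the sequenced animals are not given in the sources used here.

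Each annexin consists of a conserved core of calcium-binding repeats and a variable N-terminal tail, which decides the protein partners. At membranes, annexins organise lipid domains, vesicle traffic and actin, and several gather at wounds of the plasma membrane and help to reseal them. Anxa1 is an anti-inflammatory protein that is abundant in neutrophils and signals through formyl peptide receptors. Anxa2 pairs with S100a10 and offers a docking place for plasminogen at the cell surface. In healthy liver, hepatocytes hold little Anxa1 and Anxa2, whereas Anxa6 is among their major annexins.

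The libraries held 15861245 to 17262991 reads on genes in METTL3-Flox and 15961479 to 18434488 in METTL3-HKD. Levels are FPKM, that is, reads scaled to gene length and to an effective size per library, so levels of different genes can be compared per length. That effective size was not the number of reads on genes. Relative to those reads it was larger in METTL3-HKD than in METTL3-Flox libraries, narrowly so for the closest libraries. Results with libraries scaled to their reads on genes are therefore given as an alternative. The groups were compared with limma on log2(FPKM + 0.1), with p adjusted over all 16645 tested genes, and a gene was called at an adjusted p under 0.05. A fold change on this scale understates the change of genes near 0.1 FPKM. Mettl3 itself measured 1.33 ± 0.181 FPKM in METTL3-HKD and 1.499 ± 0.282 in METTL3-Flox (SD, n = 4), with overlapping groups (log2 fold change -0.16, adjusted p = 0.556 in limma), so that its level over the whole gene and the whole liver did not check the labels. METTL3-HKD liver 1 stood apart. Its summed FPKM of 6 neutrophil marker genes was 1610, against 329 to 543 in the other METTL3-HKD livers, and the log2 fold changes of the genes in which it was far above its group are also given without it. The limma p-values set the difference between the groups against the spread between livers within the groups. Limma steadies that spread with a trend over all tested genes.

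Anxa2 and Anxa1 rose in METTL3-HKD livers and Anxa6 fell, whereas the other 5 members did not pass the test. Anxa2 was 6.04-fold and Anxa1 4.23-fold higher in mean FPKM, and Anxa6 was 1.64-fold higher in METTL3-Flox. The 2 members called higher can be read against 9.05% of all tested genes called higher, and the 1 called lower against 6.63%. These shares depend on the livers and the scaling, with 737 to 1653 genes called higher and 347 to 1123 lower when a liver was left out and 2303 and 374 with libraries scaled to their reads on genes, against 1506 and 1104 as reported. With a log2 fold change of at least 1 as well, 2 members were higher (4.7% of all tested genes) and 0 were lower (1.52%). Before adjustment, limma gave a p under 0.05 for 3 members that were higher (16.7% of all tested genes) and 1 that was lower (15.1%). The groups did not overlap for 3 members, with METTL3-HKD livers on top for 2 (12.7% of all tested genes) and at the bottom for 1 (9.95%). With libraries scaled to their reads on genes, they were on top for 4 members, Anxa1, Anxa2, Anxa4 and Anxa11 (19.8% of all tested genes), and at the bottom for 0 (3.54%), so that Anxa6 then overlapped. The median log2 fold change of the 8 members was 0.30, against -0.0028 over all tested genes, and their median absolute log2 fold change was 0.49, against 0.30.

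**Figure D1:**
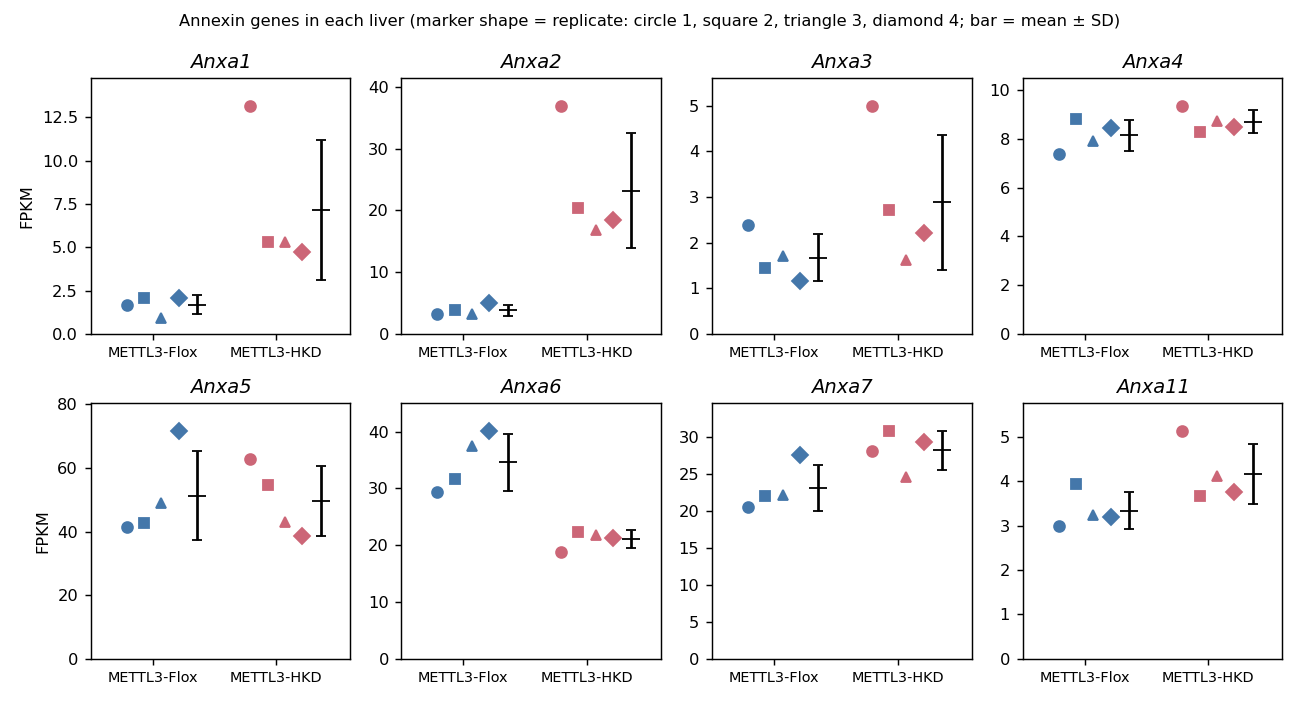
FPKM (y axis, from 0) of each of the 8 annexin genes in every liver, METTL3-Flox in blue and METTL3-HKD in red. Marker shape gives the replicate number and the bar beside each group is the mean ± SD (n = 4). The groups are apart for Anxa1, Anxa2 and Anxa6, and METTL3-HKD liver 1, the red circle, reaches 13.2 FPKM of Anxa1 and 36.9 FPKM of Anxa2.

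Because Anxa1 and Anxa2 moved together, the DNA before their start sites is shown first, from RefSeq (GRCm38.p6). Windows of the 250 bases before a RefSeq start were at hand for 6 of the 8 genes, with 8 windows in all, and none for Anxa3 and Anxa6. They were searched on both strands for TATAAA, the core of the TATA box, and for TGANTCA, which the AP-1 factors Fos and Jun bind. The motifs do not overlap each other. The following stretches of 30 bases cover the positions from 40 to 11 bases before each start, with TATAAA in capitals.
Anxa1, chr19:20390682-20390711, minus strand: tcatatccTATAAAatcaggagtccaaccc
Anxa2, chr9:69453643-69453672, plus strand: tcgcgctgggaggatggggcgggTATAAAa
Anxa4, chr6:86775125-86775154, minus strand: taaggcaggcgtgatattgctctgttctga
Anxa4, chr6:86793595-86793624, minus strand: gcaaagggacaaccaggaacttgggctcag
Anxa5, chr3:36475898-36475927, minus strand: cgcaggagcatagaggctaggacgtggcag
Anxa7, chr14:20479952-20479981, minus strand: agcaccctcgcgccgcccatgcgccacgcc
Anxa7, chr14:20480144-20480173, minus strand: cctggagctctctatctttgagtccctctg
Anxa11, chr14:25842115-25842144, plus strand: gaggctccgcccatctcgtgcggctccgcc

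TATAAA lay 32 to 27 bases before the start of Anxa1 and 17 to 12 bases before that of Anxa2, and was found in none of the other 6 windows. In the GENCODE M21 annotation, both of these matches lie inside an exon of their gene, since all 250 bases of the Anxa1 window and the last 63 bases of the Anxa2 window are exonic there. Over all 32851 windows of this length, 12.4% hold it. TGANTCA was present in the window of Anxa2, as TGAGTCA at 95 to 89 bases before the start, and in none of the other 7, against 6.75% of all windows. The part of the Anxa2 window that precedes its annotated first exon is printed with that motif in capitals.
Anxa2, chr9:69453433-69453619, plus strand: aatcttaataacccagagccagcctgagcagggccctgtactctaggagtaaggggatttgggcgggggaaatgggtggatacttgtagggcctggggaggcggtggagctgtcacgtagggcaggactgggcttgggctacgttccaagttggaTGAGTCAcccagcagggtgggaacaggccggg
These matches describe letters in a window, and binding of any factor was not measured.

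Anxa2 (ENSMUSG00000032231, GRCm38 chromosome 9, 69453620 to 69491795, plus strand) had the largest change of the 8. It was 36.9, 20.3, 16.8 and 18.5 FPKM across METTL3-HKD livers 1 to 4 and 3.19, 3.88, 3.21 and 5.06 FPKM across the METTL3-Flox livers. All METTL3-HKD livers lay above all METTL3-Flox livers, and the lowest of the former was over 3 times the highest of the latter. The means were 23.1 ± 9.30 and 3.83 ± 0.879 FPKM (SD, n = 4). The log2 fold change was 2.51 (SE 0.25, 95% interval 1.94 to 3.08, adjusted p = 0.00190 in limma). With METTL3-HKD liver 1 left out, the log2 fold change was 2.27 (adjusted p = 0.00205 in limma). The exact two-sided permutation test gave p = 0.0286, the smallest that 70 arrangements of 4 against 4 livers allow.

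Anxa1 (ENSMUSG00000024659, chromosome 19, 20373428 to 20390944, minus strand) followed. METTL3-HKD livers 1 to 4 had 13.2, 5.29, 5.33 and 4.75 FPKM, and METTL3-Flox livers 1 to 4 had 1.65, 2.09, 0.933 and 2.07 FPKM. The groups did not overlap, although METTL3-HKD liver 1 was far above the other 3 of its group. Means were 7.13 ± 4.03 and 1.68 ± 0.541 FPKM (SD, n = 4), from 230 to 691 reads per METTL3-HKD library and 37 to 88 per METTL3-Flox library. The log2 fold change was 1.94 (SE 0.36, 95% interval 1.14 to 2.75, adjusted p = 0.0111 in limma). It was 1.61 without METTL3-HKD liver 1 (adjusted p = 0.0179 in limma), and the exact two-sided permutation test again gave p = 0.0286. The gene length in the deposited table is 2608 bases, shorter than the 2911 bases of its joined annotated exons, whereas both lengths were equal for the other 7 genes.

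Neutrophil and cholangiocyte markers were higher in METTL3-HKD, as were Anxa1 and Anxa2, while the other lists of this paragraph had few genes called. Kupffer cell markers, mostly lower, are given with Anxa6. Counts of genes called can be read against 9.05% of all tested genes called higher and 6.63% called lower. All 6 of 6 neutrophil marker genes were called higher, and their summed level was 329 to 1610 FPKM in METTL3-HKD against 12.8 to 44.04 in METTL3-Flox. For cholangiocyte markers, 3 of 4 tested genes (Krt19, Krt7 and Sox9) were called higher and the sum was 7.82 to 13.9 against 3.19 to 6.10 FPKM, while Cftr of this list was under 0.1 FPKM in every liver. Mesothelial markers had 1 of 5 genes called higher (Upk3b), with overlapping sums of 1.84 to 7.84 against 1.22 to 1.92 FPKM. Monocyte and macrophage markers also had 1 of 5 called higher (Ccr2), with sums of 84.8 to 219 against 55.1 to 85.5 FPKM. Sinusoidal endothelial markers had 0 of 5 genes called, lymphocyte markers 0 of 3 tested, and stellate cell and fibroblast markers 1 higher (Des) and 1 lower (Lrat) of 5, all 3 with overlapping sums. METTL3-HKD liver 1 had the highest sum of all 8 livers for the neutrophil, cholangiocyte, mesothelial, and monocyte and macrophage lists, as it had for Anxa1 and Anxa2. It also had the highest lymphocyte sum, at 2.03 FPKM, although 0 of 3 tested genes of that list were called. The part of these cells in the annexin levels was not tested, and in whole liver more cells of a type and more RNA per cell cannot be told apart.

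**Figure D2:**
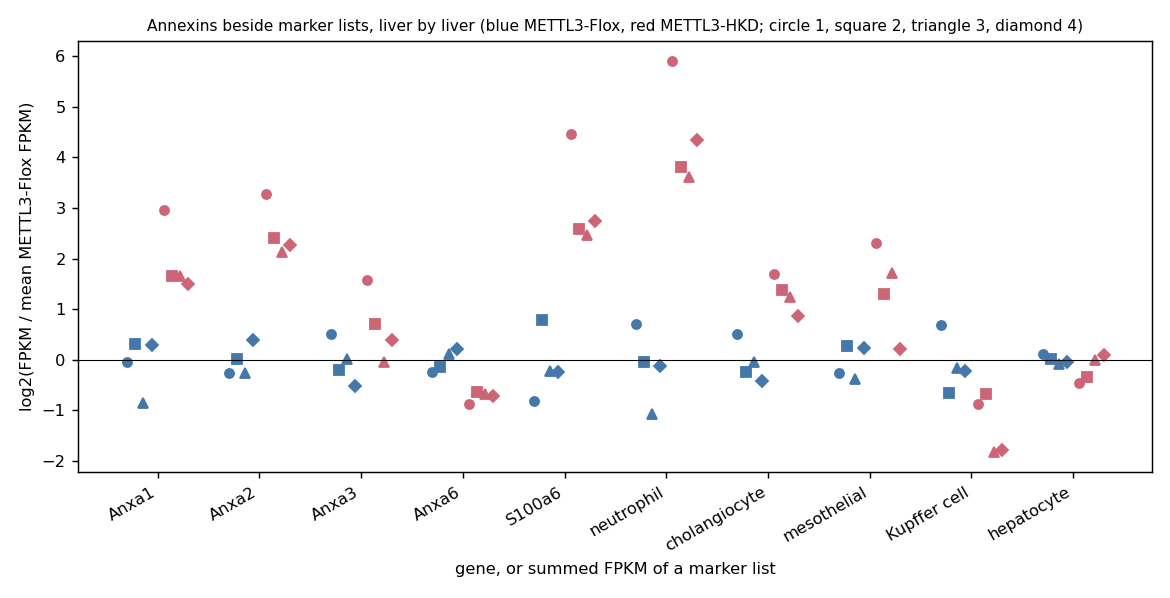
Each liver's level relative to the METTL3-Flox mean (y axis, log2 of the ratio) for 4 annexins, S100a6 and the summed FPKM of 5 marker lists (x axis), with METTL3-Flox in blue, METTL3-HKD in red and marker shape for the replicate. METTL3-HKD liver 1, the red circle, is the highest point for Anxa1, Anxa2, Anxa3, S100a6 and the neutrophil sum of 1610 FPKM, while Anxa6 and the Kupffer cell sum lie below 0 in all METTL3-HKD livers.

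Anxa6 (ENSMUSG00000018340, chromosome 11, 54979108 to 55033445, minus strand), the member with a doubled core, organises cholesterol and endosome traffic. Its level was 18.9, 22.4, 21.8 and 21.2 FPKM across METTL3-HKD livers 1 to 4 against 29.3, 31.6, 37.4 and 40.1 FPKM across the METTL3-Flox livers. The groups did not overlap, and the METTL3-HKD livers lay close together. The means were 21.1 ± 1.54 and 34.6 ± 5.01 FPKM (SD, n = 4), and the log2 fold change was -0.71 (SE 0.12, 95% interval -0.97 to -0.44, adjusted p = 0.00824 in limma; exact two-sided permutation p = 0.0286). With METTL3-HKD liver 1 left out it was -0.65 (adjusted p = 0.0257 in limma). With libraries scaled to their reads on genes, the log2 fold change of Anxa6 was -0.49 and the call was lost (adjusted p = 0.0596 in limma). That scaling moved the median of all tested genes from -0.0028 to 0.19. Beside this, 0 of 5 hepatocyte marker genes were called and 0 had a log2 fold change above 0, with a median of -0.38 and values from -0.79 for Cps1 to -0.03 for Alb. Their sums, most of which is Alb, were 21528 to 31460 FPKM in METTL3-HKD and 27677 to 31725 in METTL3-Flox. Of the Kupffer cell markers, 4 of 5 were called lower (Clec4f, Vsig4, Cd5l and Timd4), with sums of 59.1 to 132 against 134 to 336 FPKM. The part of either cell type in the level of Anxa6 was not tested.

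Anxa3 (ENSMUSG00000029484, chromosome 5, 96793339 to 96845966, plus strand), an annexin of neutrophil granules among other places, varied widely. METTL3-HKD livers 1 to 4 had 4.99, 2.72, 1.61 and 2.20 FPKM, and METTL3-Flox livers 1 to 4 had 2.38, 1.44, 1.70 and 1.16 FPKM. The ranges overlapped, and METTL3-HKD liver 1 was again the highest. The log2 fold change of 0.68 (95% interval -0.07 to 1.43) did not pass the test (adjusted p = 0.196 in limma), and it was 0.38 without METTL3-HKD liver 1. The interval reaches past a 2-fold increase, so a difference of that size cannot be set aside at this spread.

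Anxa5 (ENSMUSG00000027712, chromosome 3, 36448923 to 36475894, minus strand), the protein used to stain phosphatidylserine on dying cells, had the highest level of the family in both groups. Livers 1 to 4 had 62.8, 54.7, 43.0 and 38.6 FPKM in METTL3-HKD and 41.5, 42.8, 49.1 and 71.7 FPKM in METTL3-Flox. The ranges overlapped, and the highest liver of all was METTL3-Flox 4. The means were 49.8 ± 11.01 and 51.3 ± 14.02 FPKM (SD, n = 4), and the log2 fold change was -0.03 (95% interval -0.50 to 0.44, adjusted p = 0.935 in limma). A change of 2-fold in either direction lies outside this interval.

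Anxa4 (ENSMUSG00000029994, chromosome 6, 86736840 to 86793584, minus strand), known from secretory and biliary epithelia, was the least variable member. It had 9.36, 8.28, 8.74 and 8.48 FPKM across METTL3-HKD livers 1 to 4 and 7.39, 8.82, 7.93 and 8.45 FPKM across the METTL3-Flox livers. The groups overlapped, with means of 8.72 ± 0.471 and 8.15 ± 0.622 FPKM (SD, n = 4). The log2 fold change was 0.10 (95% interval -0.10 to 0.30, adjusted p = 0.488 in limma).

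Anxa7 and Anxa11 have long N-terminal tails, and both bind the calcium sensor Pdcd6. Anxa7 (ENSMUSG00000021814, chromosome 14, 20455260 to 20480133, minus strand) had 28.2, 30.9, 24.6 and 29.3 FPKM across METTL3-HKD livers 1 to 4 and 20.5, 22.0, 22.2 and 27.6 FPKM across the METTL3-Flox livers. METTL3-Flox liver 4 lay above METTL3-HKD liver 3, and the other METTL3-Flox livers lay below all METTL3-HKD livers. Its log2 fold change was 0.29 (95% interval 0.03 to 0.55), with an unadjusted p = 0.0307 in limma that did not hold after adjustment (adjusted p = 0.114).

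Anxa11 (ENSMUSG00000021866, chromosome 14, 25842156 to 25886804, plus strand), which tethers RNA granules to lysosomes, had 5.13, 3.66, 4.11 and 3.76 FPKM across METTL3-HKD livers 1 to 4 and 2.995, 3.94, 3.23 and 3.18 FPKM across the METTL3-Flox livers. METTL3-Flox liver 2 lay within the METTL3-HKD range, so the groups overlapped. The log2 fold change was 0.31 (adjusted p = 0.160 in limma). Antisense or other transcripts share 75 to 113 exon bases with Anxa2, Anxa3, Anxa4 and Anxa11, which reach at most 1.17 FPKM in any liver. The strand setting of the counting is not given in the sources used here, so such reads cannot be told apart.

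**Figure D3:**
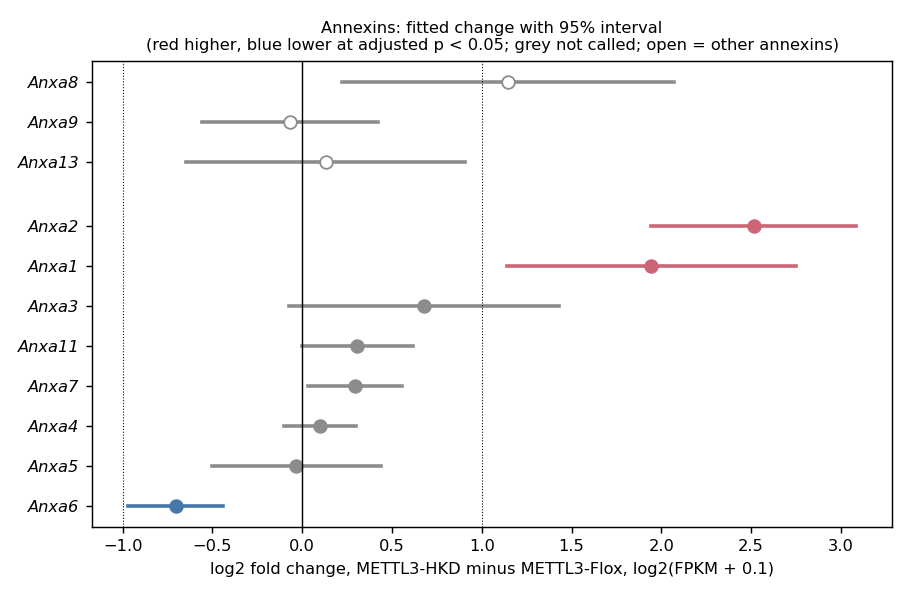
Log2 fold change of METTL3-HKD minus METTL3-Flox (x axis, on log2(FPKM + 0.1)) with its 95% interval for the 8 annexins and, as open points, 3 other tested annexins; dotted lines mark a 2-fold change. Red and blue mark genes called higher and lower, and the intervals of Anxa1 (1.14 to 2.75) and Anxa2 (1.94 to 3.08) lie wholly beyond a 2-fold increase.

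The make-up of the family differed between the groups more than its total. The FPKM of the 8 genes added up to 145 ± 25.1 in METTL3-HKD and 128 ± 22.2 in METTL3-Flox (SD, n = 4), with overlapping ranges of 126 to 179 and 109 to 159. Anxa2 made up 15.6% ± 3.39 of this sum in METTL3-HKD and 2.996% ± 0.339 in METTL3-Flox. The share of Anxa6 was 14.9% ± 3.07 against 27.2% ± 1.89, and that of Anxa1 was 4.72% ± 1.77 against 1.34% ± 0.444 (SD, n = 4). None of these 3 shares overlapped between the groups, and since shares add up to a whole they are not independent of each other. Anxa5 kept the largest share in both groups, at 34.1% ± 2.70 and 39.7% ± 3.65.

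**Figure D4:**
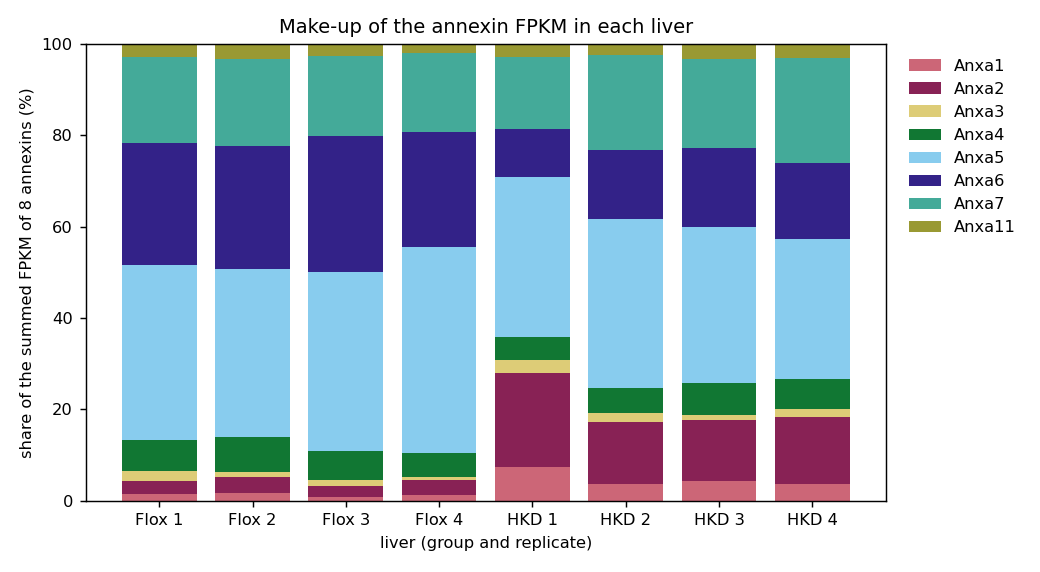
Share of each gene in the summed FPKM of the 8 annexins (y axis, percent) for every liver (x axis). Anxa2 takes 13.4 to 20.6% in the METTL3-HKD livers and 2.55 to 3.33% in the METTL3-Flox livers, and Anxa6 takes 10.5 to 17.3% and 25.2 to 29.8%.

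Ordered by mean level, METTL3-Flox livers ran Anxa5, Anxa6, Anxa7, Anxa4, Anxa2, Anxa11, Anxa1, Anxa3. Neighbours in this order whose ranges overlapped were Anxa2 with Anxa11 and Anxa1 with Anxa3. In METTL3-HKD the order was Anxa5, Anxa7, Anxa2, Anxa6, Anxa4, Anxa1, Anxa11, Anxa3, so Anxa2 moved from position 5 to position 3 and Anxa1 from position 7 to position 6. Position 3 of Anxa2 rested on METTL3-HKD liver 1, the 1 of 4 in which it exceeded Anxa6, and without that liver Anxa2 was at position 4, at a mean of 18.6 against 21.8 FPKM. With all 4 livers, the ranges of neighbours were apart at only 2 steps, between Anxa5 and Anxa7 and between Anxa6 and Anxa4. Among all tested genes, the 8-liver mean of Anxa5 ranked 843 of 16645 and that of Anxa3 ranked 8260.

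METTL3-HKD liver 1 had the highest value of its group for 6 members, all but Anxa6 and Anxa7. METTL3-Flox liver 1 had the lowest value of its group for 6 members, all but Anxa1 and Anxa3. METTL3-Flox liver 4 was the highest of its group for 4 members (Anxa2, Anxa5, Anxa6 and Anxa7). The spread was widest for Anxa1 in METTL3-HKD, with a coefficient of variation of 56.5%, and narrowest for Anxa4 in METTL3-HKD, at 5.404%.

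The other 4 annexins of the table were scarce. Anxa8 had 1.77, 1.06, 0.825 and 0.401 FPKM across METTL3-HKD livers 1 to 4 and 0.337, 0.329, 0.210 and 0.628 FPKM across the METTL3-Flox livers. METTL3-HKD liver 4 lay below METTL3-Flox liver 4, and the log2 fold change of 1.14 did not pass (adjusted p = 0.0890 in limma), although it did without METTL3-HKD liver 4 (1.48, adjusted p = 0.0388). Anxa9 and Anxa13 were under 1 FPKM in every liver, with log2 fold changes of -0.07 and 0.13 (adjusted p = 0.863 and 0.828 in limma). Anxa10 was listed at 0 in all METTL3-Flox livers and METTL3-HKD liver 3, had 0.164 to 0.260 FPKM in the other METTL3-HKD livers, and had a mean below the minimum for testing.

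**Figure D5:**
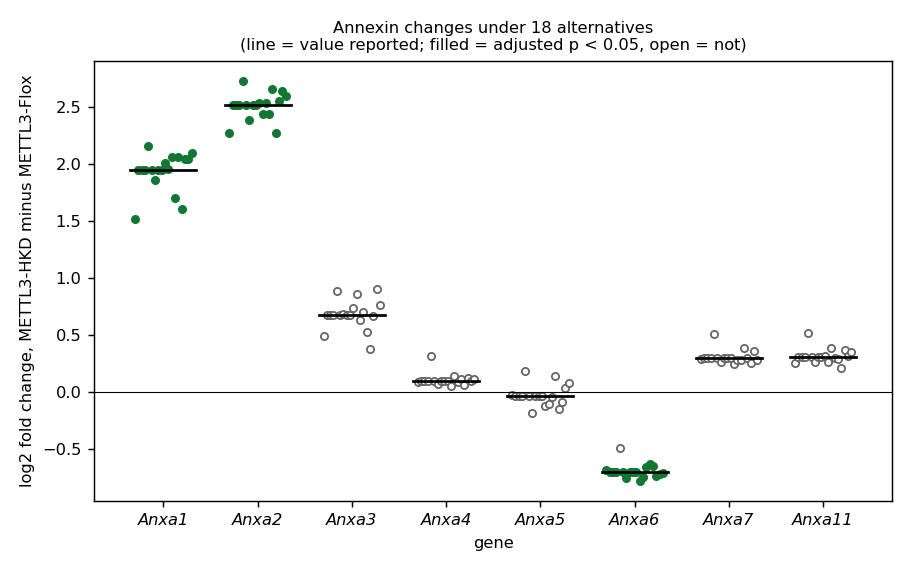
Log2 fold change of METTL3-HKD minus METTL3-Flox (y axis) of each annexin (x axis) under 18 alternative settings, each shown as a point, with the reported value as a line; filled points have an adjusted p under 0.05. Anxa1 (1.52 to 2.15) and Anxa2 (2.27 to 2.73) stay filled throughout, and Anxa6 (-0.78 to -0.49) has 1 open point.

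Annexins act with calcium-binding partners and with receptors and proteases at the membrane, and 27 genes of this kind were listed. Of the 25 that were tested, 6 were called higher and 1 lower, and their median log2 fold change was 0.30. Over all tested genes, 9.05% were called higher and 6.63% lower, and the median was -0.0028. Leaving out a liver gave 4 to 7 partner genes higher and 0 to 1 lower. The S100 proteins join annexins into tetramers that bridge membranes. S100a6, a partner of Anxa11 and Anxa2, was 31.7, 8.71, 8.02 and 9.72 FPKM across METTL3-HKD livers 1 to 4 and 0.824, 2.49, 1.25 and 1.23 FPKM across the METTL3-Flox livers. The groups were apart, and the log2 fold change was 3.09 (adjusted p = 0.00595 in limma), or 2.63 without METTL3-HKD liver 1, the highest (adjusted p = 0.00839). S100a10, the partner of Anxa2, was already at 125 to 195 FPKM in METTL3-Flox and reached 158 to 258 FPKM in METTL3-HKD. Its groups overlapped, and its log2 fold change of 0.60 did not pass (adjusted p = 0.0729 in limma), though it did without METTL3-Flox liver 4 or without METTL3-HKD liver 3.

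S100a11, the partner of Anxa1, was 41.0 to 85.4 FPKM in METTL3-HKD and 19.8 to 39.02 in METTL3-Flox. Its groups did not overlap, and its log2 fold change of 0.93 passed narrowly (adjusted p = 0.0496 in limma). That call was lost in 11 of 18 alternatives, with adjusted p from 0.0371 to 0.118, and it held on leaving out a liver only when METTL3-HKD liver 3 was the liver left out. S100a4 was listed at 0 in all METTL3-Flox livers and was not tested. The calcium sensors Pdcd6, Pef1 and Sri, which bind the tails of Anxa7 and Anxa11 or act beside them, had log2 fold changes of 0.0062, -0.13 and 0.01, and 0 of 3 were called.

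The receptors of Anxa1 were low and uneven. Fpr2 had 11.9, 2.88, 3.16 and 3.82 FPKM across METTL3-HKD livers 1 to 4 and 2.17, 1.00, 2.84 and 1.63 FPKM across the METTL3-Flox livers. The groups did not overlap but came close, and the log2 fold change of 1.29 did not pass (adjusted p = 0.0889 in limma), nor did that of 0.83 without METTL3-HKD liver 1. Fpr1 had a log2 fold change of 0.21 (adjusted p = 0.725 in limma), and -0.16 without METTL3-HKD liver 1. Fpr3 had at most 2 reads in any liver and was not tested.

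In the plasminogen system, the urokinase receptor rose, whereas plasminogen itself was lower. Plaur, the receptor of the urokinase-type activator, was 3.38 to 24.6 FPKM in METTL3-HKD and 0.352 to 0.760 in METTL3-Flox, without overlap (log2 fold change 3.74, adjusted p = 0.00499 in limma), and the log2 fold change was 3.25 without METTL3-HKD liver 1 (adjusted p = 0.00931). Plg, plasminogen, was 370 to 540 FPKM in METTL3-HKD and 571 to 719 in METTL3-Flox (log2 fold change -0.53, adjusted p = 0.0482 in limma). Its call was lost in 12 of 18 alternatives, with adjusted p from 0.0339 to 0.125, and held on leaving out a liver only without METTL3-HKD liver 3. The activators Plat and Plau (log2 fold changes 1.06 and 0.93), the plasminogen receptor Plgrkt (-0.08) and the plasmin inhibitor Serpinf2 (-0.45) did not pass.

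Of 8 genes of membrane repair, 2 were called higher and 0 lower, against 9.05% and 6.63% of all tested genes. Ahnak, a giant scaffold that binds the Anxa2 and S100a10 complex, was 4.003, 2.07, 2.35 and 2.33 FPKM across METTL3-HKD livers 1 to 4 and 0.683, 1.47, 1.07 and 0.972 FPKM across the METTL3-Flox livers. The groups were apart, and the log2 fold change was 1.28 (adjusted p = 0.0152 in limma), or 1.07 without METTL3-HKD liver 1 (adjusted p = 0.0362). Ehd2, an ATPase of caveolae, was 1.503 to 1.98 against 0.729 to 1.29 FPKM (log2 fold change 0.73, adjusted p = 0.0286 in limma). Its call was lost in 6 of 18 alternatives, with adjusted p up to 0.0822. These were no minimum level, the replicate number as a block, and leaving out METTL3-Flox liver 3 or 4 or METTL3-HKD liver 1 or 2. Dysf and Myof, the ferlins that fuse vesicles at membrane wounds, had log2 fold changes of 0.02 and 0.18 and did not pass, nor did Cav1, Pdcd6ip, Chmp4b and Trim72. The phospholipase A2 genes Pla2g4a and Pla2g6 did not pass either (log2 fold changes -0.16 and 0.30). Anxa1 was first known to restrain phospholipase A2 activity, which was not measured here.

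For each member, the protein-coding gene outside the family with the most alike profile over the 8 livers was found among 9791 genes, as the smallest root mean square difference of log2(FPKM + 0.1) centred on the gene's own mean. Aebp1 was nearest to both Anxa1 and Anxa2, at 0.29 and 0.24. These 2 annexins were 0.39 from each other, which is 1 fixed pair, whereas Aebp1 is the nearest of 9791, so the values cannot be ranked. Wdtc1 was nearest to Anxa6 (0.05), Arhgdib to Anxa3 (0.13) and Nt5c2 to Anxa5 (0.13). Mfsd14b, Maoa and Gmfb were nearest to Anxa4, Anxa7 and Anxa11, at 0.03, 0.06 and 0.07. Members also differed in spread over the livers, with a profile SD of 1.10 for Anxa1 and 0.095 for Anxa4, so a smaller difference is not a closer likeness. All these points share the same 8 libraries, and a likeness over 8 livers in 2 groups is a description.

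The annotated coding transcripts differ in length and in the letters that METTL3 commonly methylates. For each gene, the transcript with the longest coding sequence was used (GENCODE M21). The reading frames have 319 to 346 codons for Anxa1, Anxa2, Anxa3, Anxa4 and Anxa5. Those of the long-tailed Anxa7 and Anxa11 have 485 and 503, and that of Anxa6 has 673. The sense-strand letters GGACT, the most common core of m6A sites, occur 3 times in Anxa2 and in Anxa3, 2 times in Anxa1, Anxa4, Anxa6 and Anxa11, 1 time in Anxa7 and 0 times in Anxa5. Per kilobase, that is 2.07 in Anxa2, 1.19 in Anxa1 and 0.804 in Anxa6, the members called. In the members not called, it is 1.88 in Anxa3, 0.985 in Anxa4, 0.835 in Anxa11, 0.344 in Anxa7 and 0 in Anxa5. The median over 13196 tested genes with a coding transcript is 1.06 (quartiles 0.629 and 1.56). Methylation was not measured in these libraries, and a match in the letters is no site.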

How the data were processed

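RNA from 8 livers was made into libraries with a SMARTER mRNA-Seq kit after RNeasy extraction. The authors deposited FPKM and gene lengths for 54532 genes; the processing notes name GRCm38 (mm10), while the aligner, counter, annotation and strand are not given in the sources used here. Reads were rebuilt from FPKM, length and an effective size per library, came out whole in 100% of non-zero values (tolerance 0.02) and gave the depth; low counts limit precision by counting error only. The FPKM had already been scaled between libraries.

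Groups follow the labels. Genes averaging 0.1 FPKM or more were tested with limma 3.58.1 (lmFit, eBayes with trend, R 4.3.3) on log2(FPKM + 0.1), with Benjamini-Hochberg adjustment over 16645 genes. Permutation tests used scipy 1.17.1. Alternatives were other pseudocounts, minimums, scalings and weights, no trend, a replicate block, protein-coding genes, voom, and omission of each liver. Named genes are the members, the other annexins, the listed partners (1 of them, though counted, is not reported here), Mettl3 and each member's nearest gene; marker lists appear as sums, with the genes called or near 0 named. Members and lists were chosen with earlier results of these data known.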

Additional observations from a re-analysis of the deposited data

Results flagged for a closer look

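In 76 groups of 4 livers checked for a value far from the other 3, 7 were found, and 6 of these were in METTL3-HKD liver 1. The cut-off is meant to flag about 1 in 20 such groups when values are independent and normally distributed. FPKM of many genes from the same livers need not meet that, so the 7 cannot be set against this rate. In METTL3-HKD liver 1, Anxa1 was 13.2 FPKM, against 4.75 to 5.33 in the other 3 livers of its group. The same liver had 31.7 FPKM of S100a6 (others 8.02 to 9.72) and 4.003 FPKM of Ahnak (others 2.07 to 2.35). It also had 11.6 FPKM of Fpr1 (others 3.93 to 4.23), 11.9 FPKM of Fpr2 (others 2.88 to 3.82) and 0.0392 FPKM of Fpr3 (others 0). The remaining value was 0.104 FPKM of Fpr3 in METTL3-Flox liver 3, whose group was otherwise at 0. These 2 values of Fpr3 stand for at most 2 reads, and any value above 0 is flagged where the other 3 are at 0. METTL3-HKD liver 1 also had the highest summed neutrophil marker level, and the part of that in these values was not tested.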

How the results depend on the processing

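Over 18 alternatives, the 8 annexins gave 144 values, of which 139 kept direction and side of the threshold; Anxa1 and Anxa2 passed in all 18. Scaling to reads on genes raised the calls over all genes from 1506 to 2303 higher and lowered those lower from 1104 to 374, so that 86.0% of calls were higher in place of 57.7%. It left 0 annexins and 0 partner genes lower, and turned the sign of Anxa5 (0.18), Anxa9 (0.11), Pef1 (0.086), Plgrkt (0.12) and Pla2g4a (0.027). With no minimum level, 682 genes were lower. Partner genes lower numbered 0 with no minimum, no trend or array weights, and 2 with a minimum of 1 FPKM, protein-coding genes only or voom. Array weights turned Sri (-0.018), Dysf (-0.035) and Pdcd6ip (-0.0011), none of them called.

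Deviations from the group means had correlations of -0.084 to 0.071 over 4 pairs of same-numbered livers, against -0.067 to 0.094 for other pairs. So few pairs cannot show whether the numbers pair the samples, and the labels do not say. With the replicate number as a block, 971 genes were higher and 645 lower, and 3 partner genes were higher and 0 lower. Ahnak, Ehd2, S100a11 and Plg lost their calls (adjusted p = 0.0546, 0.0774, 0.0983 and 0.125 in limma), while the 3 annexin calls held.

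Leaving out each liver in turn gave 737 to 1653 genes higher and 347 to 1123 lower, with the fewest without METTL3-Flox liver 3; counts fell by over 1.5 times without METTL3-Flox liver 2, 3 or 4 or METTL3-HKD liver 1 or 2. Partner genes lower ranged from 0 to 1. Genes near 0 changed sign, with log2 fold changes of -0.15 to 0.14 for Anxa5, -0.14 to 0.071 for Anxa9, -0.051 to 0.40 for Anxa13, -0.051 to 0.080 for Pdcd6, -0.046 to 0.066 for Sri, -0.16 to 0.40 for Fpr1, -0.20 to 0.048 for Plgrkt, -0.16 to 0.18 for Dysf, -0.0058 to 0.11 for Pdcd6ip and -0.38 to 0.14 for Pla2g4a. The cause of these changes was not tested. Depth limits Anxa8, Anxa9 and Anxa13, which had 6 to 67 reads per library.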
